A study of Mus musculus with 2 samples.

Results

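Csf1r, Csf2ra, Csf2rb, Csf2rb2, Csf3r, Csf1 and Flt3 encode the receptors of the colony-stimulating factors, one of their ligands and the receptor of the Flt3 ligand. These 7 genes were taken by symbol from the 32285 genes of the deposited tables, and all 7 were found. They were read in 8557 cells of the control IgG library and 11269 cells of the anti-CD3L1 library. CD45-positive cells had been sorted with magnetic beads from subcutaneous 143B tumors of nude mice (143B is a line of human osteosarcoma). The question asked was how an antibody against human CD3L1 (ITPRIPL1), an immune checkpoint ligand, alters the myeloid cells of the tumor microenvironment (TME).

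The mice of both groups were female nude mice, 4 weeks old at the start of the experiment, which lack mature T cells and keep their myeloid cells. The control IgG group received a human IgG1 isotype antibody at 10 mg/kg and the other group received anti-CD3L1 at 10 mg/kg, in both cases 4 times at intervals of 3 days. Each group gave 1 library made from 3 pooled tumors, and no record ties a cell to a tumor. No test between the groups was therefore possible. Every interval below is an exact 95% interval that covers counting error only, and the spread between tumors is unknown. The counts cover mouse genes, so that factors made by the human tumor cells were not measured.

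Colony-stimulating factors keep myeloid cells alive and guide their growth. CSF1 and IL-34 act through the tyrosine kinase CSF1R, on which most tissue macrophages depend, and G-CSF (Csf3) acts through CSF3R to drive the production and release of neutrophils. GM-CSF (Csf2) binds an alpha chain (Csf2ra) that signals with the common beta chain (Csf2rb), which also serves IL-3 and IL-5, whereas Csf2rb2 encodes a second mouse beta chain used by IL-3 alone. FLT3 is a tyrosine kinase of early progenitors and of dendritic cells.

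In GENCODE M21 (GRCm38) all 7 are protein-coding genes. Csf2ra (ENSMUSG00000059326) spans chr19:61223957-61228429, Csf3r (ENSMUSG00000028859) chr4:126024550-126044440, Csf1 (ENSMUSG00000014599) chr3:107741048-107760469 and Flt3 (ENSMUSG00000042817) chr5:147330741-147400489.

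Csf2rb (ENSMUSG00000071713, chr15:78325752-78353847, plus strand) and Csf2rb2 (ENSMUSG00000071714, chr15:78282507-78305721, minus strand) lie side by side. Their coding sequences, 2691 and 2637 bases long, were 95.2% identical over aligned bases. The ends of the reading frames are shown because they are where the pair comes apart. Capitals mark the 5 of 60 aligned bases that differ, and the Csf2rb frame runs 54 bases further.
Csf2rb: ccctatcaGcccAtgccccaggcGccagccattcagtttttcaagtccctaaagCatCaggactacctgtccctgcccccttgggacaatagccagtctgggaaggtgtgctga
Csf2rb2: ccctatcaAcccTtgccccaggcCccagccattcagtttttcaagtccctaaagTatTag
Of the 90-base stretches of the longest coding Csf2rb transcript, 8.43% also occurred in a Csf2rb2 transcript, and of those in the last 500 bases 0 did. Reads from the shared stretches could not be told apart, and the sources used here do not say how they were counted, so the split between both genes is uncertain to that extent.

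Cells were put into classes by gates on marker genes, none of which was one of the 7. A class required 4 markers of its list, or, for neutrophils, 3 markers and 3% of the UMIs (unique molecular identifiers, each standing for 1 captured RNA molecule). Cells that passed both the monocyte and the macrophage gate formed a monocyte-macrophage class. Control IgG and anti-CD3L1 held 5434 and 444 neutrophil-gated cells, 1276 and 2539 monocyte-gated, 252 and 2143 monocyte-macrophage-gated, 365 and 2350 macrophage-gated, 40 and 480 cells of any dendritic gate, and 136 and 788 NK-gated cells. Cells exactly at the threshold made up 15.8% and 29.5% of the monocyte-gated and 41 and 259 of the macrophage-gated cells, and 2.32% and 8.78% of the neutrophil-gated cells had under 4% of their UMIs in neutrophil markers. Of the cDC2-gated cells 81.8% and 52.2% were at the threshold. Median depth in these cells ranged from 4556 (neutrophil-gated) to 14124 UMIs (macrophage-gated) in control IgG and from 2184 to 10125 UMIs in the same 4 myeloid classes of anti-CD3L1. Markers used in the gates describe the classes and cannot test their names. C1qa stood at 3039 and 4068 CPM (UMIs per 1000000 UMIs of the class) in macrophage-gated cells. In neutrophil-gated cells C1qa was at 7.39 and 54.6 CPM, and S100a9 at 102756 and 65410 CPM. The libraries shared 26 barcodes, 0.304% and 0.231% of their cells. A stricter gate, used as an alternative, required 5 markers of a list, or 3 markers and 10% of the UMIs for neutrophils.

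Csf1r (ENSMUSG00000024621, chr18:61100598-61132149), the receptor that defines the mononuclear phagocytes, was highest in the monocyte and macrophage classes of both libraries and was slightly lower there after anti-CD3L1. In the control library Csf1r was at 449 CPM (428 to 471) in monocyte-macrophage-gated, 397 CPM (380 to 414) in macrophage-gated and 379 CPM (370 to 389) in monocyte-gated cells. In anti-CD3L1 these levels were 352 CPM (344 to 360), 345 CPM (337 to 353) and 335 CPM (328 to 343). Neither library set the macrophage-gated apart from the monocyte-gated cells, and in anti-CD3L1 no neighbouring pair of the 3 classes was set apart. cDC2-gated cells held 99.7 and 109 CPM and neutrophil-gated cells 89.3 and 111 CPM. NK-gated cells, which should lack Csf1r, were at 3.04 and 8.35 CPM.

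**Figure D1:**
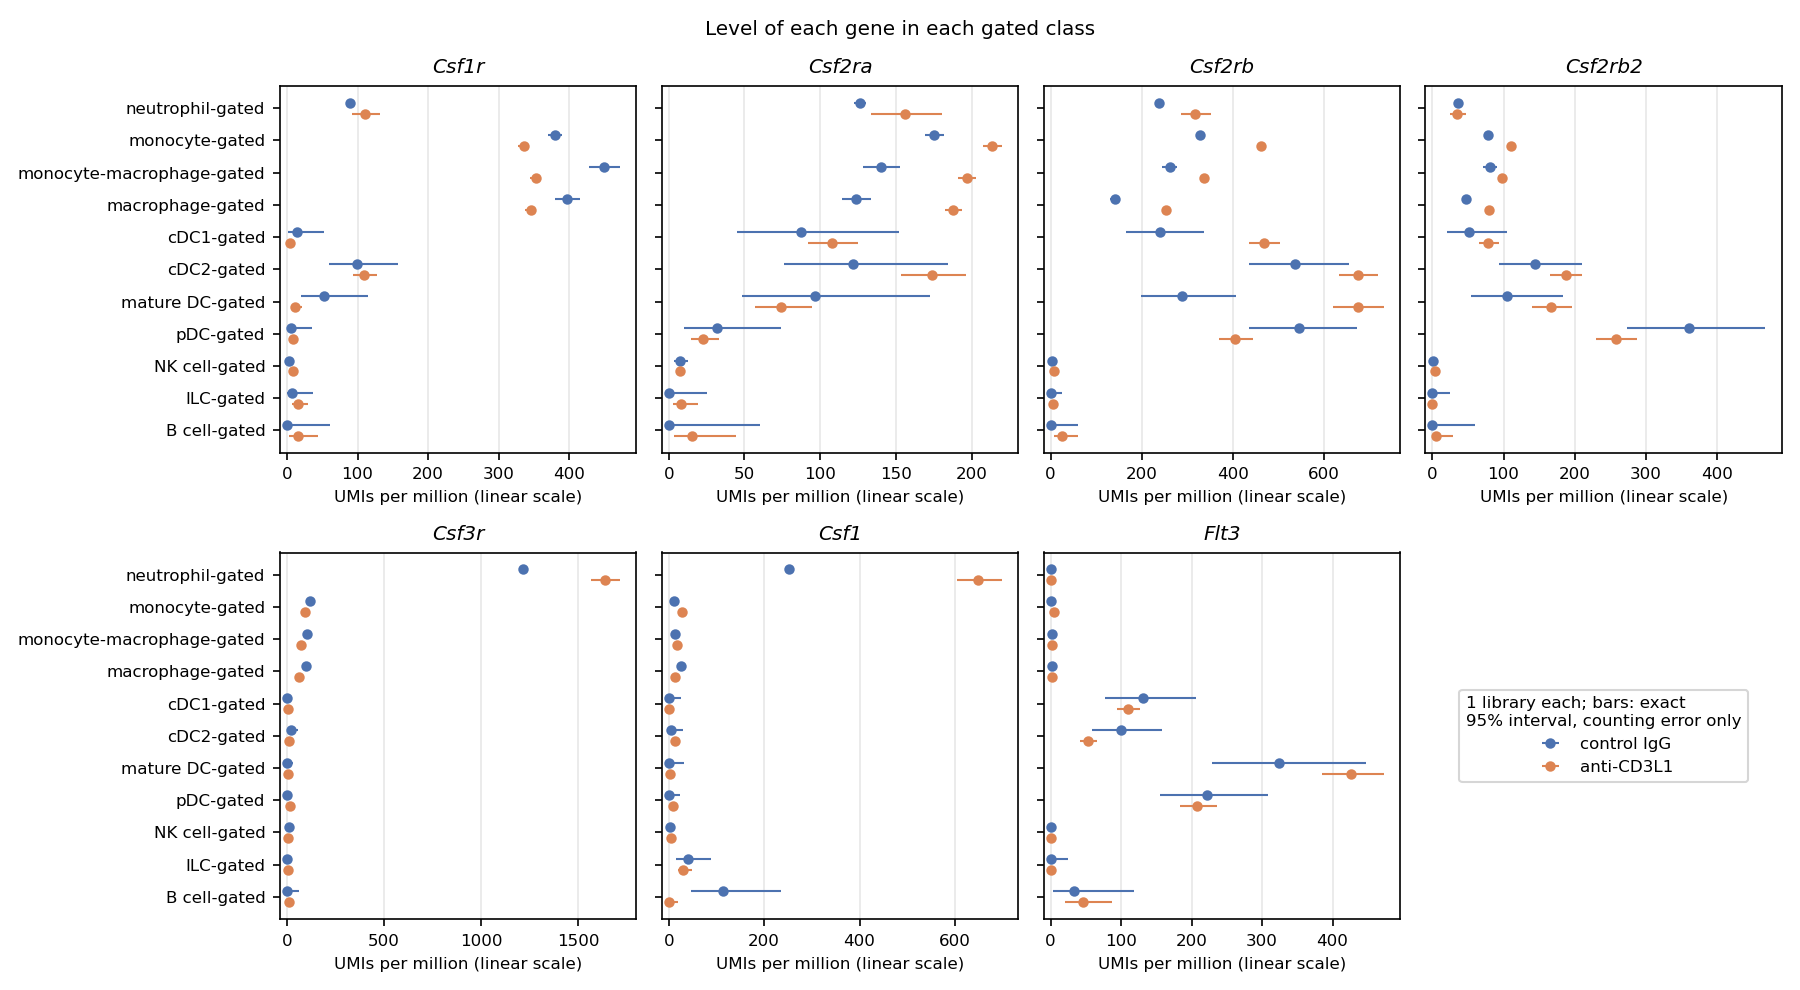
Level of each gene in 11 gated classes, in CPM (horizontal axis, linear, 1 scale per gene), for the control IgG (blue) and anti-CD3L1 (orange) libraries; points are summed UMIs of 1 library and bars exact 95% Poisson intervals. Csf1r is seen in the monocyte and macrophage classes, Csf3r and Csf1 in neutrophil-gated cells (1215 and 1639 CPM, 251 and 649 CPM), and Flt3 in the dendritic gates.

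Between the libraries, Csf1r was lower in anti-CD3L1 by a log2 ratio of -0.20 (-0.27 to -0.13) in macrophage-gated, -0.18 (-0.23 to -0.13) in monocyte-gated and -0.35 (-0.43 to -0.27) in monocyte-macrophage-gated cells. The median of all genes in these classes was at -0.01, 0.14 and 0.05, so that relative to it Csf1r was at -0.19, -0.31 and -0.40. All 3 were within 2-fold, and the monocyte-gated value turned to 0.085 when free RNA was subtracted. The share of free RNA was there estimated from neutrophil markers, at 4.29% in control IgG and 42.7% in anti-CD3L1. This estimate counts all RNA of these markers as free RNA. In anti-CD3L1 it came to 17.5% in monocyte-macrophage-gated, 8.17% in macrophage-gated and 4.57% in NK-gated cells. With shares from NK-gated cells, an alternative chosen after seeing the data, the value was -0.18. In neutrophil-gated cells Csf1r was at 0.31 (0.04 to 0.57), and at -0.28 with a stricter gate. Within clusters of cells, which were built without the 7 genes, Csf1r was at 358 and 368 CPM in the C1q-high macrophage cluster led by Ptprm, Fcrls and Cd72, a log2 ratio of 0.04 (-0.04 to 0.13). It was at 399 and 364 CPM in the monocyte cluster led by Ly6c1, Vcan and Thbs1. The Mmp12, F7 and Gpnmb cluster, with 2381 of its cells in anti-CD3L1 and 44 in control IgG, held 316 CPM in anti-CD3L1. The highest value among clusters of 50 or more cells was in a Lyve1, Cbr2 and Fcna macrophage cluster of 189 anti-CD3L1 cells, at 499 CPM. In the cluster of cycling cells led by Ctsk, Slc9b2 and Bdh2, Csf1r was at 379 CPM in control IgG and 251 CPM in anti-CD3L1.

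Counted in cells thinned to 1000 UMIs, 30.9% of macrophage-gated cells held a Csf1r UMI in control IgG (26.1 to 35.9) and 27.1% in anti-CD3L1 (25.3 to 29.0), and the intervals overlapped. In NK-gated cells, at median depths of 10923 and 8512 UMIs before thinning, the shares were 0.735% and 1.02%. Without thinning 93.4% and 82.6% of the macrophage-gated cells held a UMI.

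Csf2ra, the GM-CSF-specific chain, was read in all myeloid classes and was higher in anti-CD3L1 in the monocyte, monocyte-macrophage and macrophage classes. Monocyte-gated cells had the highest level, with 175 CPM (169 to 182) in control IgG and 213 CPM (207 to 220) in anti-CD3L1. Macrophage-gated cells had 124 and 188 CPM, neutrophil-gated cells 126 and 156 CPM and cDC2-gated cells 122 and 174 CPM. In control IgG the neutrophil-gated, macrophage-gated and cDC2-gated levels were not set apart from each other in that order. pDC-gated cells held 31.7 and 22.7 CPM, and NK-gated cells 7.29 and 7.39 CPM. Csf2ra differed by a log2 ratio of 0.60 (0.48 to 0.73) in macrophage-gated, 0.49 (0.36 to 0.63) in monocyte-macrophage-gated, 0.28 (0.22 to 0.35) in monocyte-gated and 0.31 (0.08 to 0.52) in neutrophil-gated cells. In neutrophil-gated cells the median of all genes was at 0.43, and against it Csf2ra was at -0.13.

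Csf2rb, the common beta chain, was highest in pDC-gated and cDC2-gated cells of control IgG and in cDC2-gated and mature DC-gated cells of anti-CD3L1. In anti-CD3L1 it reached 675 CPM (634 to 718) in cDC2-gated and 674 CPM (621 to 731) in mature DC-gated cells, which were not set apart from each other. cDC1-gated cells followed at 468 CPM, monocyte-gated cells at 463 CPM, pDC-gated cells at 406 CPM, monocyte-macrophage-gated cells at 336 CPM, neutrophil-gated cells at 318 CPM and macrophage-gated cells at 254 CPM. In control IgG, where the dendritic gates held 7 to 13 cells each, pDC-gated cells were at 545 CPM (436 to 673), cDC2-gated at 537 CPM (436 to 655), mature DC-gated at 289 CPM (199 to 406) and cDC1-gated at 239 CPM (165 to 336). Monocyte-gated cells had 328 CPM, monocyte-macrophage-gated cells 261 CPM, neutrophil-gated cells 238 CPM and macrophage-gated cells 141 CPM (131 to 151). The macrophage class thus had the least of the myeloid classes in both libraries. NK-gated cells were at 3.65 and 7.67 CPM.

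Csf2rb was higher in anti-CD3L1 by a log2 ratio of 0.85 (0.74 to 0.97) in macrophage-gated cells, 0.50 (0.45 to 0.54) in monocyte-gated cells and 0.36 (0.27 to 0.46) in monocyte-macrophage-gated cells. With macrophages taken from clusters the first was 1.08, past 2-fold. Those clusters included the Mmp12, F7 and Gpnmb cluster, with 44 cells in control IgG and 2381 in anti-CD3L1. Within the C1q-high macrophage cluster the Csf2rb ratio was 0.69 (0.55 to 0.83), under 2-fold. Csf2rb2, the IL-3 beta chain, was higher by 0.76 (0.57 to 0.96) in macrophage-gated cells, from 47.1 to 80.0 CPM, and by 0.50 (0.40 to 0.60) in monocyte-gated cells, from 77.8 to 110 CPM. With monocytes taken from clusters the Csf2rb2 ratio turned to -0.12. In neutrophil-gated cells Csf2rb differed by 0.42 (0.26 to 0.57) and Csf2rb2 by -0.09 (-0.59 to 0.37), while the median of all genes there was at 0.43. Against that median Csf2rb was at -0.01.

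**Figure D2:**
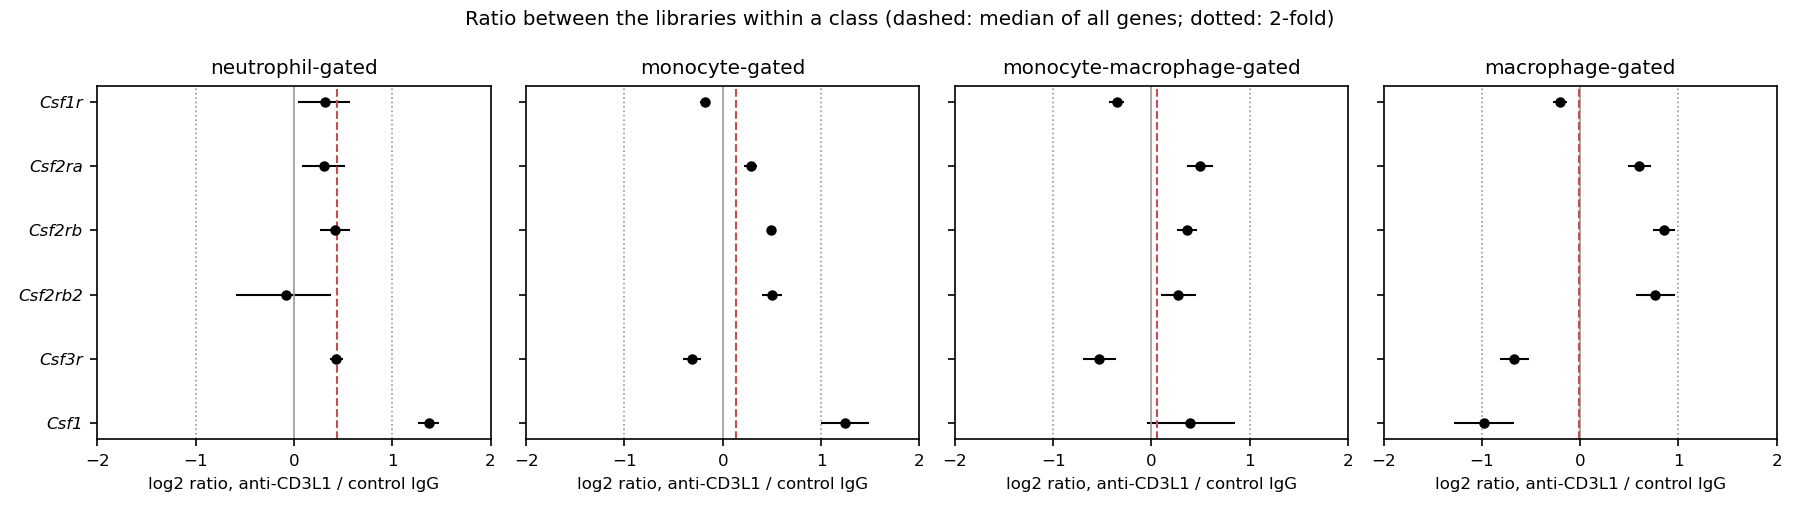
Log2 ratio of CPM, anti-CD3L1 over control IgG (horizontal axis), of 6 genes in 4 gated classes; points are the ratio of 1 library to 1 library, bars exact 95% binomial intervals, the dashed line the median of all genes with a mean of at least 10 CPM and dotted lines a 2-fold difference. Csf1 alone lies past 2-fold, in neutrophil-gated (1.37) and monocyte-gated cells (1.24), where 19.6% and 3.34% of all tested genes were at least 2-fold higher.

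The 3 chains of the GM-CSF and IL-3 receptors were also followed in the 11 clusters that had 50 or more cells in both libraries. These clusters share the same 2 libraries, and how many of all genes were higher in every cluster was not counted. The median of all genes lay above 0 in each cluster, from 0.02 to 0.54. Csf2ra was higher in anti-CD3L1 in 11 of 11 clusters, with log2 ratios from 0.19 to 1.33, and above the median of all genes of the cluster in 11. Csf2rb was higher in 11 of 11, from 0.07 to 2.10, with an interval above 0 in 8, and above the median of all genes in 10. Csf2rb2 was higher in all 10 clusters where it averaged at least 10 CPM, from 0.03 to 1.03, with an interval above 0 in 6, and above the median of all genes in 7. The largest ratios of Csf2ra and Csf2rb belonged to the NK cluster, where both were low (12.1 and 30.4 CPM, 14.6 and 62.6 CPM). In NK-gated cells the ratios were 0.02 (-0.90 to 1.06) for Csf2ra and 1.07 (-0.14 to 2.58) for Csf2rb. In the C1q-high macrophage cluster Csf2rb stood at 124 and 200 CPM, and in the cycling Ctsk cluster at 145 and 302 CPM. Csf1r, in contrast, was higher in 5 of the 11 clusters and lower in 6, and above the median of all genes in 3. Its interval lay above 0 in 1, the NK cluster, where it was low (13.6 and 42.2 CPM).

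The balance of both beta chains differed between classes. Csf2rb2 made up 13.3% (12.6 to 14.0) of the UMIs of both genes in neutrophil-gated, 19.2% (18.2 to 20.1) in monocyte-gated, 25.1% (22.4 to 27.9) in macrophage-gated and 39.9% (31.8 to 48.4) in pDC-gated cells of control IgG. The same shares in anti-CD3L1 were 9.75% (7.03 to 13.1), 19.2% (18.5 to 19.9), 23.9% (23.0 to 24.9) and 38.9% (35.4 to 42.4). The order was the same in both libraries, and in each of these 4 classes the intervals of the libraries overlapped. Both transcripts are of near equal length (4764 and 4740 bases). Whether capture or mapping of the transcript ends alters the share was not tested. In level, Csf2rb2 was highest in pDC-gated cells, at 361 CPM (274 to 468) in control IgG and 258 CPM (230 to 288) in anti-CD3L1, and set apart from the next class, the cDC2-gated cells (144 and 187 CPM), in both.

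**Figure D3:**
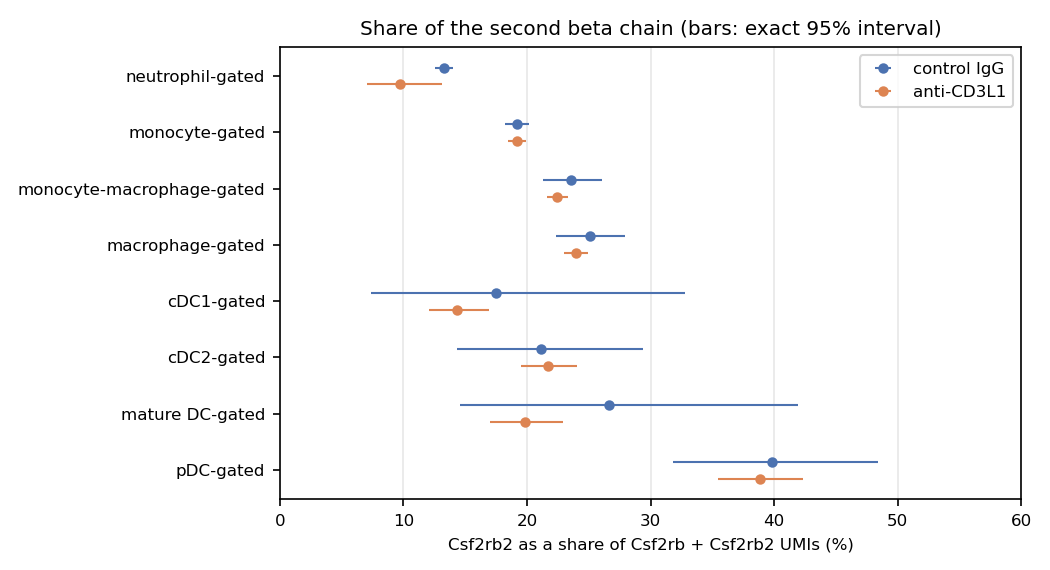
UMIs of Csf2rb2 as a share of the UMIs of Csf2rb and Csf2rb2 (horizontal axis, %) in 8 gated classes of the control IgG (blue) and anti-CD3L1 (orange) libraries; bars are exact 95% binomial intervals. The share runs from 13.3% and 9.75% in neutrophil-gated to 39.9% and 38.9% in pDC-gated cells.

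Csf3r, the G-CSF receptor, marked the neutrophil class. Neutrophil-gated cells held 1215 CPM (1203 to 1228) in control IgG and 1639 CPM (1565 to 1715) in anti-CD3L1, far above the next class in each library. Monocyte-gated cells followed at 119 and 95.9 CPM, monocyte-macrophage-gated cells at 101.3 and 70.2 CPM and macrophage-gated cells at 96.8 and 60.9 CPM. NK-gated cells were at 12.8 and 3.56 CPM. The log2 ratio in neutrophil-gated cells was 0.43 (0.36 to 0.50), equal to the median of all genes of the class. It was lower in anti-CD3L1 in macrophage-gated cells (-0.67, -0.82 to -0.52) and in monocyte-gated cells (-0.31, -0.41 to -0.22). A stricter gate gave -1.02 in macrophage-gated and -1.20 in monocyte-macrophage-gated cells, both past 2-fold. It raised the neutrophil cutoff to 10% of the UMIs, so cells between 3% and 10% could enter other classes. The macrophage class grew from 365 to 426 cells in control IgG and from 2350 to 2857 in anti-CD3L1. The monocyte-macrophage class shrank from 252 to 95 and from 2143 to 964 cells. The part of such cells in these values was not tested.

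The mononuclear cells of control IgG also held more RNA of the neutrophil marker list. Its 10 genes summed to 3096 CPM in monocyte-gated and 1759 CPM in macrophage-gated cells of control IgG, against 663 and 127 CPM in anti-CD3L1. In monocyte-gated cells S100a8 was at 1785 and 195 CPM and S100a9 at 1058 and 322 CPM, while Cxcr2 was at 3.69 and 4.45 CPM. In macrophage-gated cells Cxcr2 was at 4.66 and 1.13 CPM. Whether this RNA came from neutrophils was not tested. With free RNA subtracted, in shares estimated from the 10 neutrophil markers, the log2 ratio of Csf3r was 0.14 in monocyte-gated and -0.55 in macrophage-gated cells. The direction turned in the first and held in the second. With shares from NK-gated cells the ratio was -0.25 and -0.60. Per 1000 UMIs of S100a9 there were 11.8 UMIs of Csf3r in neutrophil-gated cells of control IgG (11.7 to 11.9) and 103 in macrophage-gated cells (93.9 to 113). In anti-CD3L1 these ratios were 25.1 (23.9 to 26.2) and 1023 (947 to 1104). The same ratio was not taken in free RNA. Where the Csf3r of the monocyte-gated and macrophage-gated cells came from was not tested. A monocyte cluster led by BC018473, Vcan and Chil3, which also carried neutrophil markers, had the highest Csf3r outside the neutrophil clusters and the F3, Nos2 and Ccdc126 cluster, at 561 and 542 CPM.

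Thinned to 1000 UMIs, 67.1% (65.9 to 68.4) of neutrophil-gated cells held a Csf3r UMI in control IgG and 80.0% (75.9 to 83.7) in anti-CD3L1. NK-gated cells held one in 1.47% and 0.381%. Without thinning the neutrophil-gated shares were 95.7% and 93.2%. Csf1r was found in 8.18% and 9.15% of the neutrophil-gated cells. Both receptors were found together in 5.92% (5.30 to 6.58) of the control IgG neutrophil-gated cells, where the product of the single shares was 5.49%. Over all cells of control IgG they met in 5.01% (4.55 to 5.50), below the product of 6.93%. Over all cells of anti-CD3L1 they met in 1.84% (1.60 to 2.11), an interval that covered the product of 1.99%. Csf2ra and Csf2rb, which signal as 1 receptor, met in 2.27% (1.88 to 2.70) of neutrophil-gated and 3.53% (2.58 to 4.69) of monocyte-gated cells of control IgG, with products of 2.09% and 4.31%. Over all cells both met in 2.40% (2.08 to 2.75) in control IgG and 4.19% (3.82 to 4.58) in anti-CD3L1. The products there were 2.30% and 3.71%.

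Csf1, the ligand of Csf1r, had its highest level in neutrophil-gated cells of both libraries. It was the 1 tested member past 2-fold between the libraries in neutrophil-gated and monocyte-gated cells. Of all tested genes, 19.6% and 3.34% were at least 2-fold higher there. Against the median of all genes Csf1 was at 0.94 in neutrophil-gated cells, under 2-fold. Neutrophil-gated cells held 251 CPM (246 to 257) in control IgG and 649 CPM (603 to 698) in anti-CD3L1, from 7652 and 737 UMIs. Macrophage-gated cells held 26.2 CPM (22.0 to 31.0) and 13.3 CPM (11.8 to 14.9), monocyte-gated cells 11.6 and 27.3 CPM and monocyte-macrophage-gated cells 13.3 and 17.4 CPM. ILC-gated cells (21 and 108 cells) had 40.6 and 30.9 CPM. In the B cell gate 7 UMIs in 7 control IgG cells gave 115 CPM, and 0 UMIs in 48 anti-CD3L1 cells allowed up to 15.3 CPM. NK-gated cells were at 2.43 and 5.75 CPM.

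In neutrophil-gated cells Csf1 was 2.58-fold higher in anti-CD3L1, a log2 ratio of 1.37 (1.26 to 1.48). Of the 5192 genes tested there (a mean of at least 10 CPM over the libraries), 19.6% were at least 2-fold higher and 3.41% at least 2-fold lower, and Csf1 was the 1 of 6 tested members that passed. Relative to the median of all genes, Csf1 was at 0.94, just under 2-fold. With that median taken out, 447 genes were past 2-fold higher and 364 lower, in place of 1016 and 177. The share of cells with a Csf1 UMI, thinned to 1000 UMIs, was 18.3% (17.2 to 19.3) in control IgG and 38.5% (33.9 to 43.3) in anti-CD3L1, against 0% and 0.635% of NK-gated cells. Without thinning it was 40.5% and 53.8%.

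The neutrophil-gated cells of the libraries also differed in make-up. Summed neutrophil markers were 188226 CPM in control IgG and 114248 CPM in anti-CD3L1, the 6 immature neutrophil markers 318 and 2757 CPM (1 and 2 of them at 0), and the 8 macrophage markers 78.9 and 716 CPM. Their part in the Csf1 difference was not tested. Clusters split the difference. Among the neutrophil-gated cells of the F630028O10Rik, Asprv1 and Lrg1 cluster, Csf1 was at 287 CPM in 1998 control IgG cells and 733 CPM in 245 anti-CD3L1 cells. In the cluster led by F3, Nos2 and Ccdc126 it was at 219 and 857 CPM (1253 and 118 cells). In the interferon-response cluster led by Ifit3b and Ifit1 it was at 687 CPM (559 to 835) and 962 CPM (721 to 1259), in 37 and 21 cells, so this cluster was high in both libraries. The Ngp, Ly6g and Retnlg cluster went the other way, with 264 CPM (254 to 274) in 1359 control IgG cells and 157 CPM (103 to 228) in 46 anti-CD3L1 cells.

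**Figure D4:**
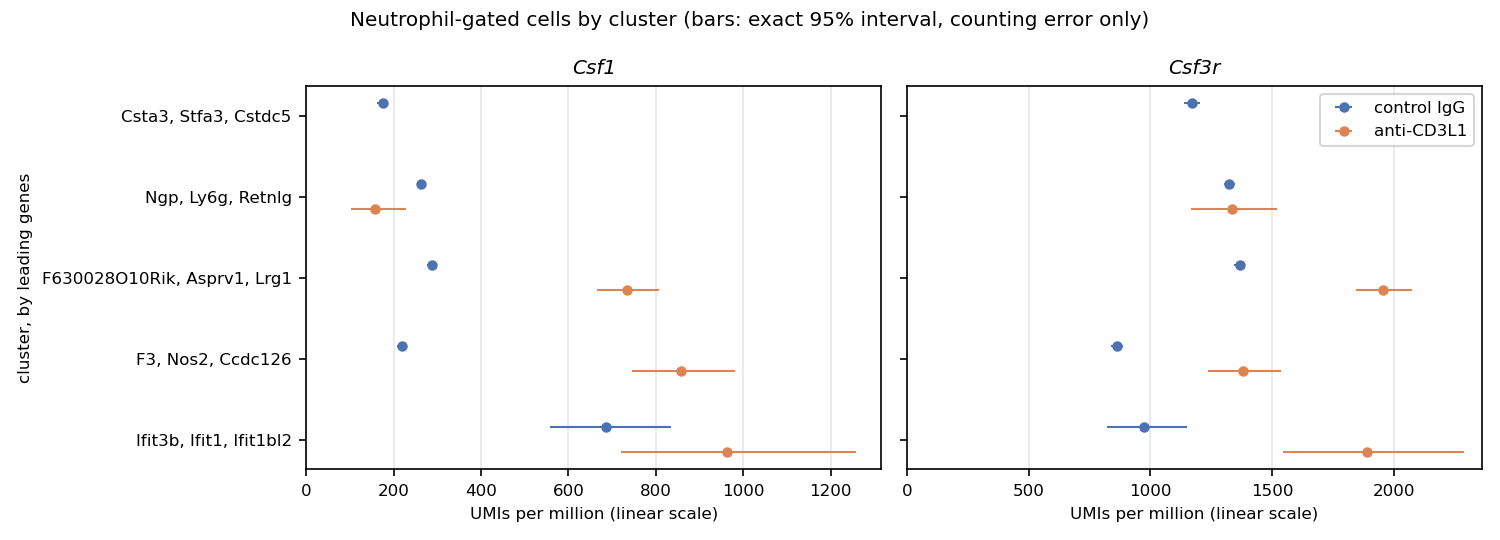
Csf1 (left) and Csf3r (right) in neutrophil-gated cells by cluster, named by leading genes, in CPM (horizontal axis, linear); points are summed UMIs of 1 library and bars exact 95% Poisson intervals, with no anti-CD3L1 point where under 20 cells were present. Csf1 is higher in anti-CD3L1 in the F630028O10Rik and F3 clusters (287 and 733 CPM, 219 and 857 CPM) and lower in the Ngp cluster (264 and 157 CPM).

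In monocyte-gated cells Csf1 was 2.36-fold higher in anti-CD3L1 (log2 ratio 1.24, 1.001 to 1.49), from 188 and 565 UMIs. Of 7163 genes tested there, 3.34% were at least 2-fold higher and 1.86% at least 2-fold lower, and Csf1 was again the 1 of 6 members that passed. With the median of all genes taken out, 175 genes were higher and 179 lower, in place of 239 and 133, and Csf1 stood at 1.10. This call was lost with a stricter gate (0.58) and with monocyte clusters (0.74). The stricter gate could also let in cells with 3% to 10% of their UMIs in neutrophil markers. The monocyte-gated cells of the libraries also differed in make-up. The 8 macrophage markers summed to 1321 CPM in control IgG and 3048 CPM in anti-CD3L1, and the 8 monocyte markers to 5352 and 4926 CPM. Vcan was at 392 and 159 CPM and Ly6c2 at 575 and 1078 CPM. Their part in the ratios of monocyte-gated cells was not tested. The BC018473, Vcan and Chil3 cluster, which also carried neutrophil markers, held 35.6% and 33.8% of the Csf1 UMIs of the class. They lay in 40 and 60 cells, at 92.2 and 295 CPM. Whether these were doublets of a monocyte and a neutrophil was not tested. In macrophage-gated cells Csf1 was lower in anti-CD3L1, at a log2 ratio of -0.98 (-1.28 to -0.68), and within the C1q-high macrophage cluster at -1.41 (-1.75 to -1.06). In macrophage-gated cells 0 of 6 members passed 2-fold, where 2.17% of 7613 genes were higher and 2.43% lower, and in monocyte-macrophage-gated cells 0 of 6 passed, where 2.71% of 7413 genes were higher and 1.97% lower.

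Flt3 was above 10 CPM in the dendritic gates and the B cell gate and in none of the other 6 classes. Mature DC-gated cells had the most, 325 CPM (229 to 447) in control IgG and 427 CPM (385 to 472) in anti-CD3L1. pDC-gated cells had 222 and 208 CPM, cDC1-gated cells 131 and 109 CPM, cDC2-gated cells 99.7 and 52.8 CPM and B-gated cells 32.7 and 45.9 CPM. In anti-CD3L1 each of the first 3 was set apart from the next, whereas in control IgG, with 7 to 13 cells a gate, none was. Neutrophil-gated cells had 3 UMIs (0.0985 CPM) in control IgG and 0 in anti-CD3L1, which allows up to 2.64 CPM, and NK-gated cells had 0 (up to 1.82 CPM) and 1.23 CPM.

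Over any dendritic gate Flt3 stood at 183 CPM (150 to 221) in control IgG and 172 CPM (161 to 183) in anti-CD3L1. The interval of the log2 ratio, -0.09 (-0.38 to 0.21), covered both directions. The dendritic gates took in 0.467% of cells in control IgG (0.334 to 0.636) and 4.26% in anti-CD3L1 (3.89 to 4.65), and over all cells Flt3 was 5.53-fold higher (3.05 and 16.8 CPM). They held 108 of the 205 Flt3 UMIs of control IgG and 925 of the 1648 of anti-CD3L1. Dendritic clusters held 68 and 996 cells, against 40 and 480 in the gates. In monocyte-gated cells Flt3 was at 0.738 and 4.45 CPM, under the 10 CPM required for a call, and 51 of the 92 UMIs in anti-CD3L1 lay in 83 cells of the Cd209a and Timd4 cluster. The cycling Ctsk cluster held 7 Flt3 UMIs in control IgG and 69 in anti-CD3L1 (2.69 and 41.1 CPM). Of 480 dendritic-gated cells of anti-CD3L1 thinned to 1000 UMIs, 3.54% held Csf1r and 15.2% held Flt3 (62.5% without thinning). Both were found in 0 cells, with an interval of 0 to 0.766% that covers the product of the shares, 0.539%.

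Summed over each library, the receptors followed another pattern than within classes. Csf3r was at 637 and 82.7 CPM over all cells and Csf1 at 132 and 26.9 CPM, while within neutrophil-gated cells both were higher in anti-CD3L1. Neutrophil-gated cells, 63.5% of cells in control IgG and 3.94% in anti-CD3L1, held 86.3% of all Csf3r UMIs in control IgG and 23.0% in anti-CD3L1, and 85.8% and 28.0% of all Csf1 UMIs. In anti-CD3L1 the monocyte, monocyte-macrophage and macrophage gates held 21.5%, 15.4% and 11.2% of the Csf1 UMIs. Csf1r over all cells was at 223 and 270 CPM, with 18.1% and 0.477% of its UMIs in neutrophil-gated cells, although it was lower in each of the monocyte and macrophage classes after anti-CD3L1. A change in the number of cells of a class and differences between the pooled tumors cannot be told apart here.

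**Figure D5:**
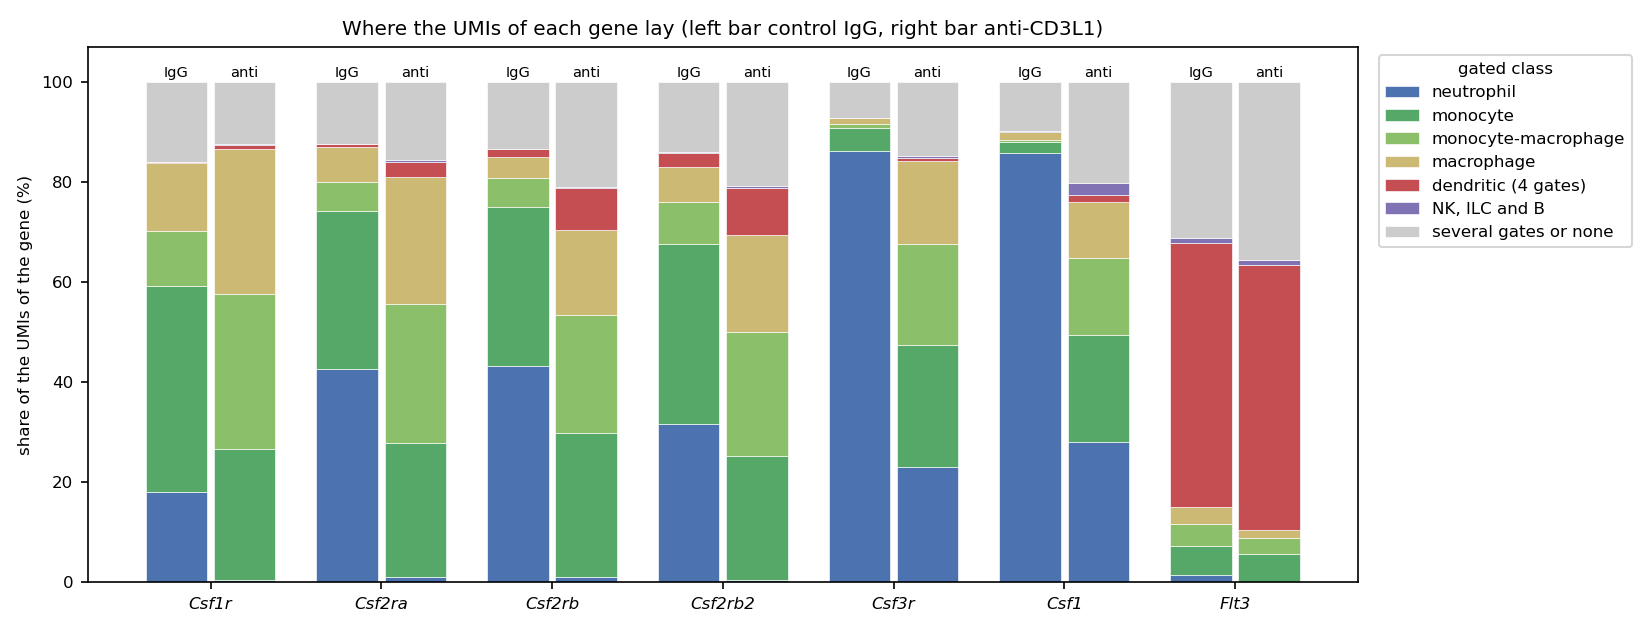
Share of each gene's UMIs (vertical axis, %) that lay in each gated class, left bar control IgG and right bar anti-CD3L1, 1 library each; the dendritic part covers the 4 single dendritic gates and grey is cells with several gates or none. Neutrophil-gated cells hold 86.3% of Csf3r and 85.8% of Csf1 UMIs in control IgG and 23.0% and 28.0% in anti-CD3L1.

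Other genes of the pathway were taken from 3 lists, 10 ligands and other receptors, 13 signal transducers and inhibitors and 11 transcription factors. In neutrophil-gated cells 18 of the 34 were tested, 7 were at least 2-fold higher in anti-CD3L1, 2 lower and 9 neither, where 19.6% and 3.41% of all genes were. With the median of all genes taken out, 5 were higher and 3 lower, beside 8.61% and 7.01% of all genes. In monocyte-gated cells 4 of 24 were higher and 3 lower, beside 3.34% and 1.86% of all genes. In monocyte-macrophage-gated cells 3 of 22 were higher and 2 lower, beside 2.71% and 1.97%, and in macrophage-gated cells 3 of 22 and 2, beside 2.17% and 2.43%.

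Among ligands, Csf3, which encodes G-CSF, was lower in anti-CD3L1 in each of the 4 classes. It was at 138 CPM in neutrophil-gated cells of control IgG, with 4209 UMIs, and at 0 UMIs in anti-CD3L1, at least 52.3-fold lower against a limit of 3 counts over the class. Monocyte-gated cells held 192 and 37.4 CPM and macrophage-gated cells 27.0 and 11.7 CPM. Kitl, the ligand of the receptor tyrosine kinase KIT, was at 2.13 and 27.7 CPM in macrophage-gated cells, and Il3ra, the alpha chain of the IL-3 receptor, at 6.98 and 21.3 CPM. Csf2 was under 1 CPM in the 4 classes, Il3 had 0 UMIs in the cells of either library, and NK-gated cells had 8.51 and 4.52 CPM of Csf2. Il34, the other ligand of CSF1R, was under 2 CPM in the 4 classes.

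Among transducers, Cish, a STAT5-induced inhibitor of cytokine signalling, was higher in monocyte-gated (6.82 and 22.0 CPM) and monocyte-macrophage-gated cells (2.99 and 20.4 CPM). Socs3, the inhibitor of STAT3 signalling through receptors such as CSF3R, was lower in monocyte-gated cells (550 and 248 CPM). Jak2, the kinase bound by the beta chain, was within 2-fold, at 296 and 197 CPM in monocyte-gated cells. Tyrobp, an adaptor of myeloid receptors, was within 2-fold in all 4 classes. Among the transcription factors, Cebpb, which drives emergency granulopoiesis, was lower in all 4 classes, from 1651 to 730 CPM in monocyte-gated cells. Irf4 was higher in 3 of them, with 5.24 and 24.4 CPM in macrophage-gated cells. Irf8, a factor of monocytes and dendritic cells, was at 100.7 and 228 CPM in monocyte-gated cells. Klf4 and Irf8 were higher in neutrophil-gated cells (Klf4 6.67 and 40.5 CPM) beside the macrophage markers given above. Spi1, which encodes PU.1, was within 2-fold in the 4 classes.

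The patterns most like each member were read from log2(CPM + 1) over 15 class-by-library sums of at least 50 cells among 7921 genes, points that share libraries and depth. Csf1r was most like Lyz2 (Pearson's r = 0.98), Clec4a2 (0.98) and Clec4a3 (0.98), and Csf2ra most like Spi1 (0.97), Ifitm3 and Gm46224. Csf2rb and Csf2rb2 led each other's lists (0.96), followed by Fmnl2 and Skap2 for the first and Myo1c and Sgk3 for the second. Csf3r was most like F630028O10Rik (0.97), Slfn4 and Rhov, Csf1 most like E230032D23Rik (0.94), Rab44 and Ypel3, and Flt3 most like Havcr1 (0.96), Bcl9 and Pkib.

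Since Spi1 headed the list of Csf2ra, promoters were searched for GAGGAA, the core bound by PU.1, on both strands. RefSeq promoters (GRCm38.p6) matched 5 of the 7 genes by symbol, namely Csf2ra, Csf2rb2, Csf3r, Csf1 and Flt3. In the 250 bases before the RefSeq start the motif occurred in 3 of them, Csf2ra, Csf2rb2 and Csf3r, and in 23.3% of 32851 promoters of that length. The 250 bases of Csf2ra are chr19:61228419-61228668 on the minus strand, with 2 adjoining matches in capitals that begin 14 and 8 bases before the RefSeq start.
Csf2ra: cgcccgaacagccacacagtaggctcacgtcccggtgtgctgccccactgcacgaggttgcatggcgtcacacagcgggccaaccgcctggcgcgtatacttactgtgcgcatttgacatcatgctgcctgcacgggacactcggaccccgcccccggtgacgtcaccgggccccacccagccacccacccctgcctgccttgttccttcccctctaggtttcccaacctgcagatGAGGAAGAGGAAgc
The stretches around the match of Csf3r, 86 bases before the RefSeq start, and of Csf2rb2, where the motif lies on the other strand, are shown beside it.
Csf3r: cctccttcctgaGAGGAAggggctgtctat
Csf2rb2: ctctgtgtctgcTTCCTCcagagaagtcag
RefSeq and GENCODE place the starts differently. The 250 bases of Csf2ra and of Csf3r (chr4:126024409-126024658) reach into the GENCODE gene spans given above. The Csf3r match and the Csf2ra match nearer the RefSeq start lie inside these spans. A match is a description of these letters and not a bound site.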

How the data were processed

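RNA was measured in CD45-sorted cells by 10x Genomics droplets. The deposited files hold raw counts of UMIs, not normalized, for each gene in all barcodes, with no cell call. The submitters' processing notes name Cell Ranger 7.1.0, Seurat 5.1.0 and GRCm39. Positions here are from GENCODE M21 (GRCm38), which held 32158 of the 32285 gene identifiers.

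Barcodes with at least 500 UMIs, over 200 and under 6000 genes and under 5% mitochondrial UMIs were kept. Libraries totalled 74850604 (control IgG) and 108246719 UMIs (anti-CD3L1), and median depth was 5526 and 8267 UMIs. Cells past several gates (255 and 550), possible doublets, were left out of classes, other than monocyte-macrophage cells and cells of several dendritic gates, which count under any dendritic gate. UMIs were summed per class and divided by the class total (CPM). Intervals at 95% are exact Poisson for CPM and exact binomial for shares and ratios. A class or level was called set apart from the next where the interval of their ratio left out 1. A count of 0 was given the limit of 3 counts. With 1 library a group there was no test. A 2-fold difference among genes with a mean of at least 10 CPM was counted as past the fold. Clusters came from scanpy 1.11.5 with leidenalg 0.10.2, without the 7 genes. The calculation of ratios and intervals was checked on simulated Poisson counts with 200 changed genes. These counts held no variation between tumors or libraries, so the check says nothing about that spread. Python 3.11.15, NumPy 2.4.6, SciPy 1.17.1, Biopython 1.88 and matplotlib 3.10.9 were used. Alternatives changed the gate, the classes, the weights, the scaling, the free RNA, the cell filters and the depth. The 7 genes, the marker and pathway lists and the rules were chosen with earlier results of these data known. Named genes are the 7, the pathway lists, the 3 genes most like each, markers and the leading genes of clusters. The authors' table of macrophage genes, with fold changes and p-values of their own comparison, was not used. A gene of the pathway lists is counted but not reported here by name.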

Additional observations from a re-analysis of the deposited data

Results flagged for a closer look

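Csf1 was flagged because its direction between the libraries differed between classes. Its log2 ratio, anti-CD3L1 over control IgG, was 1.37 in neutrophil-gated and 1.24 in monocyte-gated cells and -0.98 in macrophage-gated cells. The macrophage-gated value rested on 135 UMIs in control IgG and 294 in anti-CD3L1. The difference between the classes was not tested, since each group is 1 library.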

How the results depend on the processing

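Among 27 log2 ratios, 0 moved out of their counting interval without the mitochondrial limit or with at least 1000 UMIs per cell, and 1 when every cell weighed the same (Csf3r in neutrophil-gated cells, 0.50). A stricter gate moved 11 of 27, classes from clusters 10 of 21, median-of-ratios scaling 10 of 27, free RNA subtraction 8 of 27 and the window of 1000 to 4000 UMIs 3 of 6. No value past 2-fold reversed. Under 2-fold, directions turned for Csf1r in neutrophil-gated cells (stricter gate -0.28, clusters -0.14, median-of-ratios scaling -0.12, 1000 to 4000 UMIs -0.20), for Csf2ra (-0.13), Csf2rb (-0.01) and Csf3r there under median-of-ratios scaling, for Csf2rb2 (clusters -0.12), Csf1r and Csf3r (free RNA subtracted, Csf3r 0.14) in monocytes and for Csf1 in monocyte-macrophage-gated cells (stricter gate -0.09). Csf2rb2 in neutrophil-gated cells (0.02 at 1000 to 4000 UMIs) and Flt3 in dendritic-gated cells (0.11 with free RNA subtracted) also crossed 0, within their counting interval. A stricter gate gave 1.14 for Csf1 in neutrophil-gated and 0.58 in monocyte-gated cells and -0.10 for Csf1r in macrophage-gated cells. Classes from clusters gave 1.18 and 0.74 for Csf1 in neutrophils and monocytes, -0.077 and -0.094 for Csf1r in monocytes and macrophages and 1.08 for Csf2rb in macrophages. Median-of-ratios scaling gave -0.0010 for Csf3r and 0.94 for Csf1 in neutrophil-gated cells and -0.31 for Csf1r in monocyte-gated cells. Subtracting free RNA gave 0.085 for Csf1r and 1.86 for Csf1 in monocyte-gated cells, where the share of free RNA, estimated from neutrophil markers, came to 4.29% and 42.7%. With shares taken from NK-gated cells (1.42% and 2.13%), an alternative chosen after seeing the data, 0 of 27 moved. In cells of 1000 to 4000 UMIs, also added later, Csf1 in neutrophil-gated cells was at 1.13. At a floor of 50 CPM the genes past 2-fold numbered 407, 146, 130 and 122 in neutrophil-, monocyte-, monocyte-macrophage- and macrophage-gated cells, against 1193, 372, 347 and 350. The cause of these differences was not tested. Shares of cells rose with depth, to 48.5% and 46.2% of macrophage-gated cells for Csf1r at 2000 UMIs. The class highest in Csf2rb in anti-CD3L1 was mature DC-gated under the stricter gate and clusters, and in Csf1r monocytes under clusters, which had no monocyte-macrophage class. No paired analysis was possible because each group is 1 library, and no replicate could be left out.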
